A study of Mus musculus with 4 samples.

Results

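The 10 genes described here are listed as genes of the resting hair follicle's stem cells and the hair germ. Other skin cells make some of them too, among them Cd34 and Postn. The 10 were compared between Bmal1 knockout and heterozygous mouse skin. They were taken from a fixed list of names, and each of the 10 had 1 probe set on the array paired with that gene alone, among 21789 such probe sets and 35557 in all. The 10 are Cd34, Sox9, Lhx2, Nfatc1, Tbx1, Foxc1, Runx1, Gli1, Lrig1 and Postn. They go by the name of stem cell transcription factors, but 3 of them (Cd34, Lrig1 and Postn) encode surface or matrix proteins and 7 encode transcription factors.

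Whole back skin of 4 C57Bl6 littermate mice was taken on postnatal day 22 at ZT22, that is, 22 hours after lights on, under 12 hours of light and 12 of darkness. The labels place the hair cycle at that age in telogen, its phase of rest. In 2 mice 1 Bmal1 allele was mutant and the other wild type, and in the other 2 both copies were deleted in the germline, so the loss touches every cell of the body and not the follicle alone. Both groups carry at least 1 mutant allele, and no wild-type mouse was compared. Each mouse gave 1 Affymetrix whole-transcript array, and the number of arrays limits the precision of every value. Values are log2 signals after quantile normalization, differences are knockout minus heterozygous, and a signal is compared only with the same probe set's signal in another array.

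The bulge, a niche in the outer root sheath of the resting follicle, holds slowly dividing stem cells, and the hair germ below it holds the cells that divide first when a new growth phase begins. Transcription factors such as SOX9, LHX2, NFATC1, TBX1 and FOXC1 maintain these cells or hold them at rest, whereas RUNX1 and the Hedgehog effector GLI1 are tied to their activation. BMAL1 pairs with CLOCK, binds E-box elements and drives the circadian clock. The comparison asks whether transcripts of the listed genes differ in whole skin without Bmal1.

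The Arntl probe set, which reads Bmal1, lay at 8.90 and 9.08 with 1 intact allele and at 8.29 and 8.16 with none. The 2 genotypes thus differed by -0.76 (SE 0.12, limma adjusted p = 0.015, with 2 mice in each group). Its adjusted p was 0.064 without knockout array 1 and 0.102 when probe sets paired with several genes were tested too. Of the 16341 probe sets tested, 323 passed an adjusted p of 0.05, or 1.98%. That number was 37 without knockout array 1 and 958 without heterozygous array 1, and it was 0 when the probe sets paired with several genes were tested as well. Arrays correlated at 0.97 to 0.99 across probe sets paired with 1 gene. All 7 basal and all 6 suprabasal keratinocyte markers with a probe set lay above the filter on low signals (6.67).

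None of the 10 genes passed the adjusted threshold in limma, and 2 had an unadjusted p under 0.05. Postn was higher in the knockout arrays and Gli1 lower. All 10 lay above the filter, so none was left untested. The 2 genes are 20% of the list, beside 17.9% of all tested probe sets at the same unadjusted p (11.6% higher and 6.38% lower), so the share is near the background. In 5 of the 10 the arrays of the genotypes did not overlap, 2 higher and 3 lower in the knockout, beside 49.8% of all tested probe sets (27.8% higher and 22.1% lower). The list was evenly divided, with 5 genes above 0 and 5 below (54.2% and 45.8% of all tested probe sets), a median difference of -0.02 and a median size of 0.17. Over all tested probe sets the median difference was 0.02 and the median size 0.14.

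**Figure D1:**
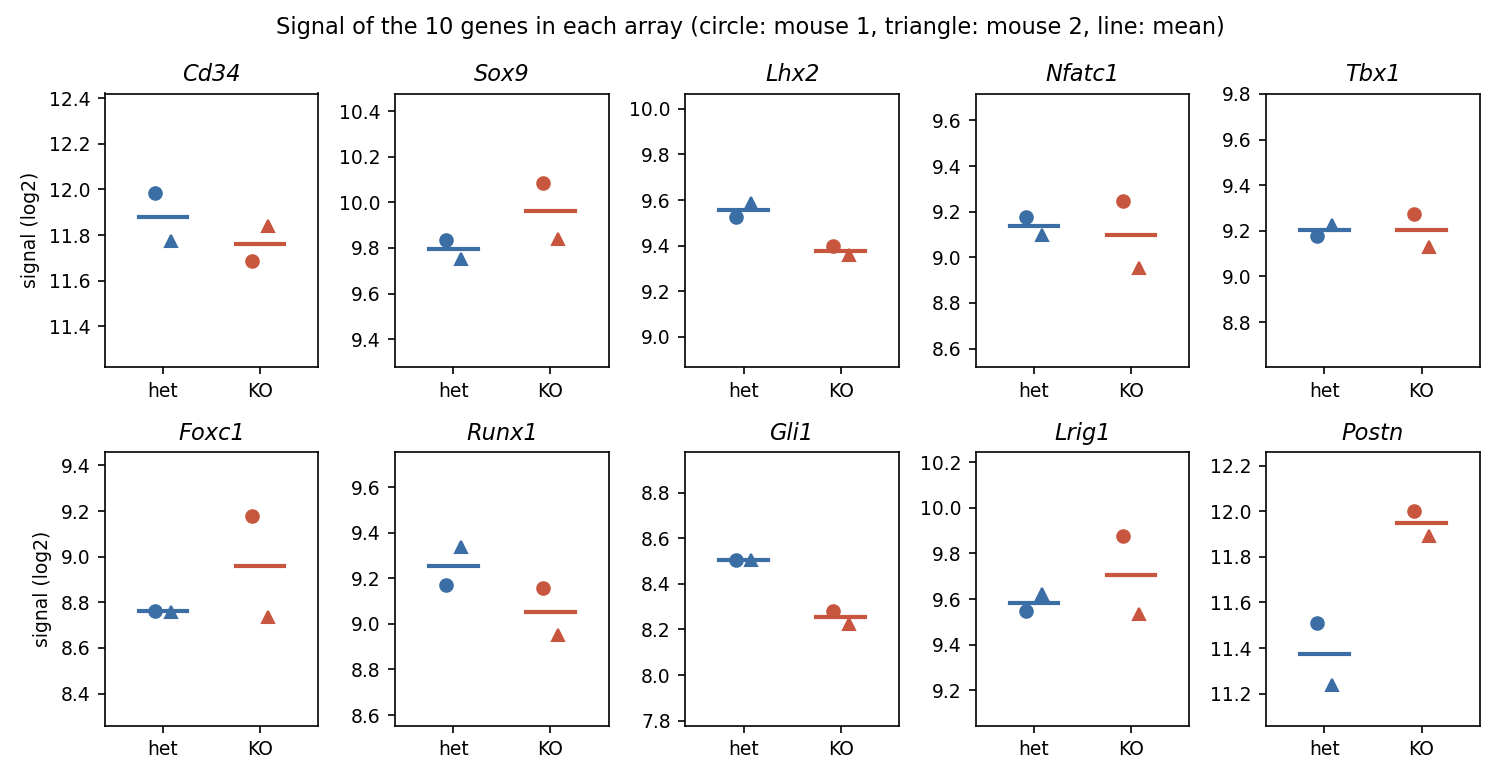
Signal (log2) of each of the 10 genes in the 4 arrays, 1 panel per gene, each spanning the same range of log2 units around the gene's mean. Circles are mouse 1, triangles mouse 2 and lines the mean of each genotype; the genotypes stand well apart for Postn, while for Foxc1 and Lrig1 knockout array 1 lies above the other 3 arrays.

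The bulge is described first by the surface protein that marks it. Cd34, a sialomucin of bulge keratinocytes in mice that vessels, mast cells and fibroblasts also carry, read 11.99 and 11.77 in heterozygous skin against 11.69 and 11.84 in knockout skin. The genotypes overlapped, with knockout array 2 between the heterozygous arrays. Its difference was -0.12 (SE 0.13, 95% interval -0.40 to 0.16, limma adjusted p = 0.67), and leaving out heterozygous array 2 gave -0.22, leaving out heterozygous array 1 -0.02. In whole skin, fewer cells of a type and less RNA per cell cannot be told apart. Of the other cell types that make Cd34, endothelial markers had a median difference of 0.03 with 5 of 10 higher (-0.12 without knockout array 1 and 0.18 without knockout array 2), and their summed linear signal was 4441 to 4494 in the heterozygous and 4082 to 4977 in the knockout arrays. Mast cell markers had a median of -0.11 with 5 of 6 tested lower and sums of 3644 to 4417 against 3581 to 3681. In each of these lists no gene passed, and their part in the Cd34 values was not tested.

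Sox9, a factor that specifies and maintains follicle stem cells, read 9.83 and 9.75 in heterozygous skin against 10.08 and 9.84 in knockout skin. Both knockout arrays lay above both heterozygous ones, but knockout array 2 by less than the gap between the heterozygous arrays. The difference was 0.17 (SE 0.12, 95% interval -0.11 to 0.44, limma adjusted p = 0.51), and it was 0.05 without knockout array 1 and 0.29 without knockout array 2.

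Lhx2, a LIM-homeodomain factor that keeps bulge cells in their stem cell state, was lower in both knockout arrays with little spread. It read 9.53 and 9.59 in heterozygous skin against 9.40 and 9.36 in knockout skin. The mean without Bmal1 came to 88.3% of that with 1 intact allele, a difference of -0.18 (SE 0.11, 95% interval -0.42 to 0.06, limma adjusted p = 0.42). With median centring, which moves the median of all tested probe sets to 0.10, its difference was -0.04.

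Nfatc1, the calcineurin-dependent factor that holds bulge cells at rest, read 9.18 and 9.10 in heterozygous skin against 9.25 and 8.95 in knockout skin. The knockout arrays enclosed the heterozygous ones. The difference was -0.04 (SE 0.13, 95% interval -0.33 to 0.25, limma adjusted p = 0.90), and it turned to 0.08 with the values as deposited and to 0.11 with median centring. Tbx1, a T-box factor needed for stem cells to renew themselves over repeated hair cycles, gave the smallest difference of the 10. It read 9.18 and 9.23 in heterozygous skin against 9.27 and 9.13 in knockout skin, and the difference was 0.0013 (SE 0.11, 95% interval -0.25 to 0.25, limma adjusted p = 1.00).

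Foxc1, a forkhead factor that returns activated stem cells to rest, read 8.76 in each heterozygous array and 9.18 and 8.74 in the knockout arrays. Only knockout array 1 was high, and the other knockout array lay just below the heterozygous pair. The difference of 0.20 (SE 0.15, 95% interval -0.13 to 0.53, limma adjusted p = 0.52) was -0.02 without knockout array 1 and 0.42 without knockout array 2. Lrig1 is a transmembrane brake on epidermal growth factor receptor signalling that marks stem cells of the follicle above the bulge. Like Foxc1, it was highest in knockout array 1 and lowest in knockout array 2. It read 9.55 and 9.62 in heterozygous skin against 9.88 and 9.53 in knockout skin. Its difference was 0.12 (SE 0.13, 95% interval -0.18 to 0.42, limma adjusted p = 0.68), or -0.05 without knockout array 1 and 0.29 without knockout array 2.

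Runx1, a Runt-domain factor that promotes the start of hair growth, read 9.17 and 9.34 in heterozygous skin against 9.16 and 8.95 in knockout skin. Knockout array 1 and heterozygous array 1 all but met, so the genotypes were barely apart. The difference was -0.20 (SE 0.12, 95% interval -0.47 to 0.08, limma adjusted p = 0.43). It was -0.30 without knockout array 1, -0.10 without knockout array 2 and -0.05 with median centring.

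Promoter windows from RefSeq (GRCm38.p6), from 250 bases before to 50 after an annotated start, were searched for the E-box CACGTG, which reads alike on both strands, and for the core of the ROR element, TAGGTCA, on either strand. Neither motif contains the other. Windows were matched by symbol, but those on 1 chromosome were left out for the 10 genes and kept among all windows. This gave windows of 7 of the 10 genes, 11 windows in all: those of Cd34, Lhx2, Tbx1, Foxc1, Runx1, Lrig1 and Postn. A gene absent from these 7 may thus have windows that were left out. An E-box was found in 1 of the 11, at Runx1, beside 7.15% of all 32851 windows. The ROR element core was in 0 of the 11, beside 2.61% of all. The bases before the start are shown for the Runx1 window that holds the E-box, on the minus strand at chr16:92826075-92826324, and for 1 of the windows of Postn, the gene with the largest difference, on the plus strand at chr3:54360857-54361106, with the E-box in capitals.
Runx1: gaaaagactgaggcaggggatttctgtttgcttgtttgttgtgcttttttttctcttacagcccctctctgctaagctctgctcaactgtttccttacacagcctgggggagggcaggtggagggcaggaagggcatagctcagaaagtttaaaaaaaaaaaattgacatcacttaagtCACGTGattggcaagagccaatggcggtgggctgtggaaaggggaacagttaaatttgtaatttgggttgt
Postn: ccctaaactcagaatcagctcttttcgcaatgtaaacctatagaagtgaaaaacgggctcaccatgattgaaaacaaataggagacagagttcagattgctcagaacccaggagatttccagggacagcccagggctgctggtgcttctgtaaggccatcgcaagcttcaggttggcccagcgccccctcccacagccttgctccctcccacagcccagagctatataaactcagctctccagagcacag
The Runx1 E-box begins 71 bases before the annotated start. A match of letters does not show binding, and a window without one says nothing about sites elsewhere.

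Gli1, the transcription factor at the end of the Hedgehog pathway and itself one of its target genes, marks hair germ and bulge cells that receive the signal. It read 8.50 in each heterozygous array, against 8.28 and 8.23 in the knockout arrays. The arrays of each genotype lay close together and the genotypes apart. Knockout signal averaged 84.0% of heterozygous signal, a difference of -0.25 (SE 0.11, 95% interval -0.49 to -0.01, unadjusted p = 0.044, limma adjusted p = 0.26). The difference stayed between -0.27 and -0.22 with any 1 array left out, and it was -0.17 with the values as deposited and -0.13 with median centring. Its unadjusted p was above 0.05 without each array in turn, lowest at 0.088 without heterozygous array 2.

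Of the other Hedgehog pathway genes, 18 were tested and 1 passed the adjusted threshold. Cdon, a co-receptor that binds Hedgehog ligands, rose from a heterozygous mean of 6.99 to a knockout mean of 7.66, with both knockout arrays above both heterozygous ones, a difference of 0.67 (SE 0.13, limma adjusted p = 0.040). That call ended in 5 of the 14 alternatives that tested it: adjusted p was 0.053 without heterozygous array 2, 0.376 without knockout array 1, 0.082 without knockout array 2, 0.079 without a filter and 0.149 with several-gene probe sets added. At an unadjusted p under 0.05, 2 of the 18 were higher and 3 lower, beside 11.6% and 6.38% of all tested probe sets. The lower ones were Disp1, which releases lipid-modified ligand from the sending cell (-0.48, SE 0.13), Kif7, a ciliary kinesin that regulates GLI proteins (-0.34, SE 0.11), and the ligand Ihh (-0.32, SE 0.11).
Apart from Cdon, no gene of this pathway list passed. Ptch1, the receptor and a target gene, read 9.11 and 9.45 in the heterozygous and 9.15 and 9.06 in the knockout arrays. Its difference was -0.17, that of Gli2 -0.26, that of Hhip 0.07 and that of Shh 0.0018; these 4 genes were picked with their values known. The median over the 18 was -0.03, or -0.12 without knockout array 1 and 0.06 without knockout array 2.

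Postn encodes periostin, a matrix protein that binds integrins and collagen and that fibroblasts secrete, and it gave the largest difference of the 10. It read 11.51 and 11.24 in heterozygous skin against 12.00 and 11.89 in knockout skin. Both knockout arrays were higher, and the gap between genotypes exceeded the gap within either. Knockout signal averaged 1.49-fold heterozygous signal, a difference of 0.57 (SE 0.13, 95% interval 0.29 to 0.86, n = 2 per genotype, unadjusted p = 0.0013, limma adjusted p = 0.056). Of all tested probe sets, 2.26% had a smaller p. The adjusted p fell under 0.05 in 6 of the 15 alternatives, and over all of them it ran from 0.015 to 0.338. Without heterozygous array 2 it was 0.125 (difference 0.44), without heterozygous array 1 0.016 (0.71), without knockout array 1 0.338 (0.52) and without knockout array 2 0.112 (0.63).

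Beside Postn, the other products of fibroblasts did not move together. Fibroblast markers had a median difference of -0.04 (-0.16 without heterozygous array 2 and 0.12 without heterozygous array 1) with 4 of 10 higher and none past the adjusted threshold, and their summed linear signal was 34697 to 41163 in the heterozygous and 36185 to 37952 in the knockout arrays. Dpt, a dermal matrix protein, differed by -0.29 and Fbln1 by -0.34, whereas Col3a1 differed by 0.20. Tgfbi, the paralog of Postn, differed by 0.08 (SE 0.11). Skeletal muscle markers shared the direction of Postn between genotypes. All 10 were higher, with a median of 0.52 and sums of 48096 to 48215 against 63377 to 75253, and 3 passed. All 8 sebocyte markers were higher too, with a median of 0.62 and 2 passing, and the median was 0.35 with heterozygous array 2 left out and 0.88 with heterozygous array 1 left out. The part of these cell types in the Postn value was not tested.

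The probe sets closest to Postn were chosen by the root mean square distance between deviations from the own mean over the 4 arrays. They were those of Cmbl (distance 0.0071), Abhd18 (0.019), St6galnac4, a sialyltransferase (0.020), Rcl1 (0.021) and Mrpl45, a protein of the mitochondrial ribosome (0.022). Their differences ran from 0.54 for Rcl1 to 0.59 for St6galnac4. With so few arrays, such a likeness is a description only.

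**Figure D2:**
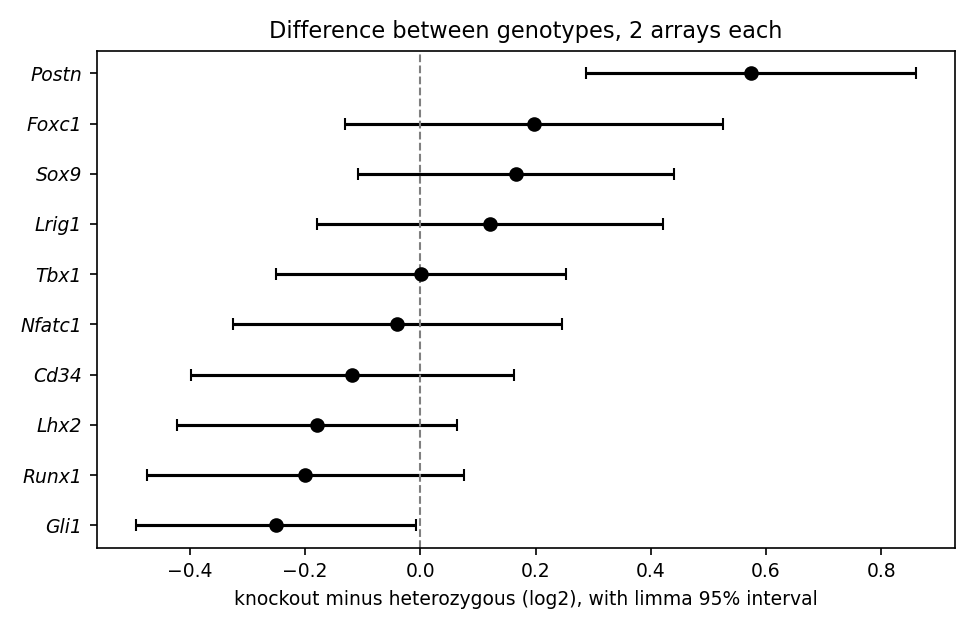
Difference between knockout and heterozygous arrays (log2) for each of the 10 genes, points with limma's 95% intervals, ordered by size. The interval of Postn lies above 0 from 0.29 to 0.86, that of Gli1 ends at -0.01, and the other 8 include 0.

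Among themselves the 10 genes differed more between the knockout mice than between the heterozygous mice. The median gap between the 2 knockout arrays was 0.18, and between the 2 heterozygous arrays 0.08. Over all tested probe sets the order was the other way, with 0.12 and 0.14. The knockout gap was the wider one in 7 of the 10 genes and in 44.3% of all tested probe sets. Knockout array 1 was the highest of the 4 for 6 genes (Sox9, Nfatc1, Tbx1, Foxc1, Lrig1 and Postn), as for 35.3% of all tested probe sets. Knockout array 2 was the lowest for 7 genes (Lhx2, Nfatc1, Tbx1, Foxc1, Runx1, Gli1 and Lrig1), as for 26.6%. In Nfatc1, Tbx1, Foxc1 and Lrig1 both held at once, so the heterozygous mice lay between the knockout mice, an order found in 7.07% of all tested probe sets. This pattern was noticed with the values in view and has no test.
Basal keratinocyte markers, the cell layer to which bulge cells belong, had a summed linear signal of 19171 in knockout array 1 and 15812 in knockout array 2, but of 19134 and 14258 in the heterozygous arrays. Their part in the order of the knockout arrays was not tested.

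**Figure D3:**
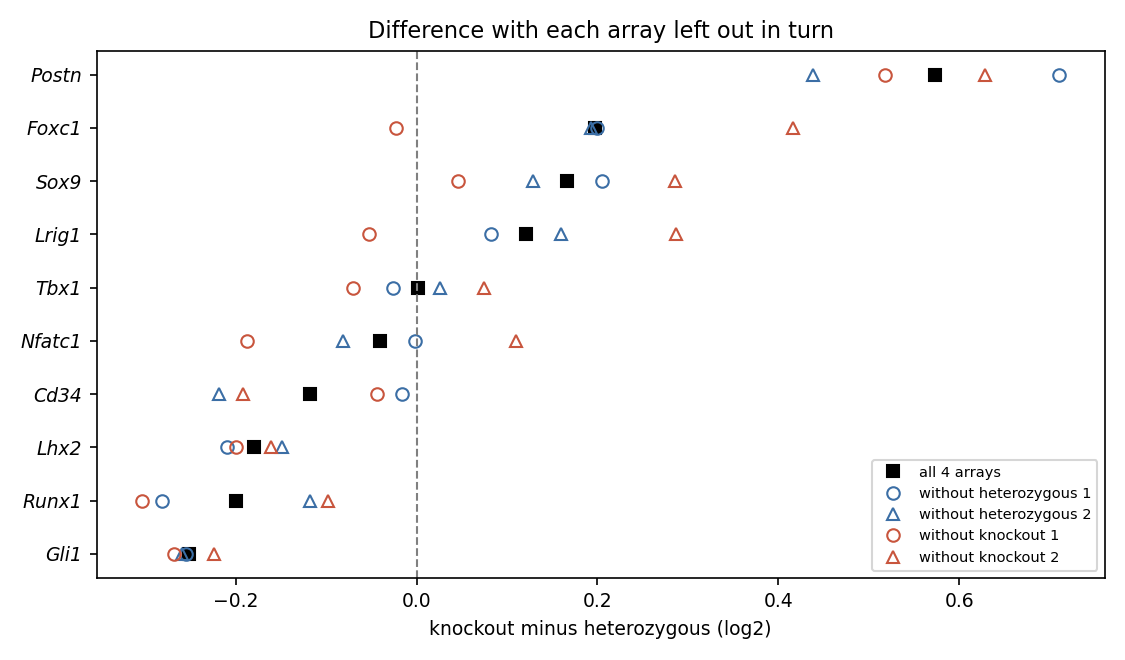
Difference between genotypes (log2) for the 10 genes with all 4 arrays (squares) and with each array left out in turn (open symbols; blue for heterozygous, red for knockout). Without knockout array 1 the values of Foxc1, Lrig1 and Tbx1 turn below 0, while those of Postn stay at 0.44 or above and those of Gli1 at -0.22 or below.

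Of the paralogs and partners of the 10 genes, 26 were tested and 0 passed the adjusted threshold in limma. Their median difference was 0.01. At an unadjusted p under 0.05, 4 were higher and 1 lower, beside 11.6% and 6.38% of all tested probe sets. Calcineurin, the phosphatase that lets NFAT factors enter the nucleus, was read through its regulatory subunit Ppp3r1 (0.37, SE 0.12) and its catalytic subunit Ppp3ca (0.30, SE 0.12), each with both knockout arrays above the heterozygous ones. Its other catalytic subunits did not share that direction: Ppp3cc read 8.51 and 8.46 against 8.34 and 8.25 (-0.19, SE 0.11), and Ppp3cb differed by -0.02 (SE 0.12). Rcan1, a calcineurin inhibitor that NFAT itself induces, read 9.78 and 9.83 against 9.62 and 9.44 (-0.28, SE 0.12). Limma's adjusted p was 0.14 for Ppp3r1, 0.238 for Ppp3ca and 0.245 for Rcan1. That of Ppp3r1 fell under 0.05 in 1 of the 15 alternatives, at 0.049 with median centring. Skeletal muscle also makes calcineurin, and its markers were higher in the knockout arrays as given above; their part in these values was not tested. Tbx15, a T-box factor of dermal cells, differed by 0.33 (SE 0.12, adjusted p = 0.20), and Cbfb, the partner of RUNX1, by less than 0.01.

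Other markers of the bulge and hair germ had a median difference slightly below 0, which turned to 0.02 with the values as deposited and to 0.06 with median centring. Of 36 tested, 23 were lower and 13 higher, with a median difference of -0.06, while 45.8% of all tested probe sets were lower. None passed the adjusted threshold in limma. At an unadjusted p under 0.05, 5 were lower and 2 higher, beside 6.38% and 11.6% of all tested probe sets. The 4 with the smallest p follow, and each passed in some of the 15 alternatives: Sfrp1 in 6, Npnt in 5, Krt24 in 2 and Igfbp5 in 1. Sfrp1, a secreted Wnt inhibitor of the bulge, read 9.42 and 9.19 in heterozygous skin against 8.37 and 8.83 in knockout skin, a difference of -0.70 (SE 0.16, limma adjusted p = 0.059). Leaving out knockout array 1 gave -0.47 (adjusted p = 0.342) and leaving out heterozygous array 1 gave -0.59 (0.093). Sfrp1 passed without heterozygous array 2 (-0.83, adjusted p = 0.045) and without knockout array 2 (-0.93, 0.012). Krt24, a keratin of the bulge, read 8.51 and 8.36 against 8.01 and 7.89 (-0.48, SE 0.12, limma adjusted p = 0.074). Igfbp5, which binds insulin-like growth factors, read 10.79 and 10.77 against 10.33 and 10.35 (-0.44, SE 0.11, adjusted p = 0.076). Npnt, the bulge basement membrane protein to which the arrector pili muscle attaches, went the other way, from 8.98 and 8.94 to 9.45 and 9.38 (0.46, SE 0.11, adjusted p = 0.068). The list's median was -0.15 without heterozygous array 2, -0.13 without knockout array 1, -0.03 without heterozygous array 1 and -0.02 without knockout array 2.

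**Figure D4:**
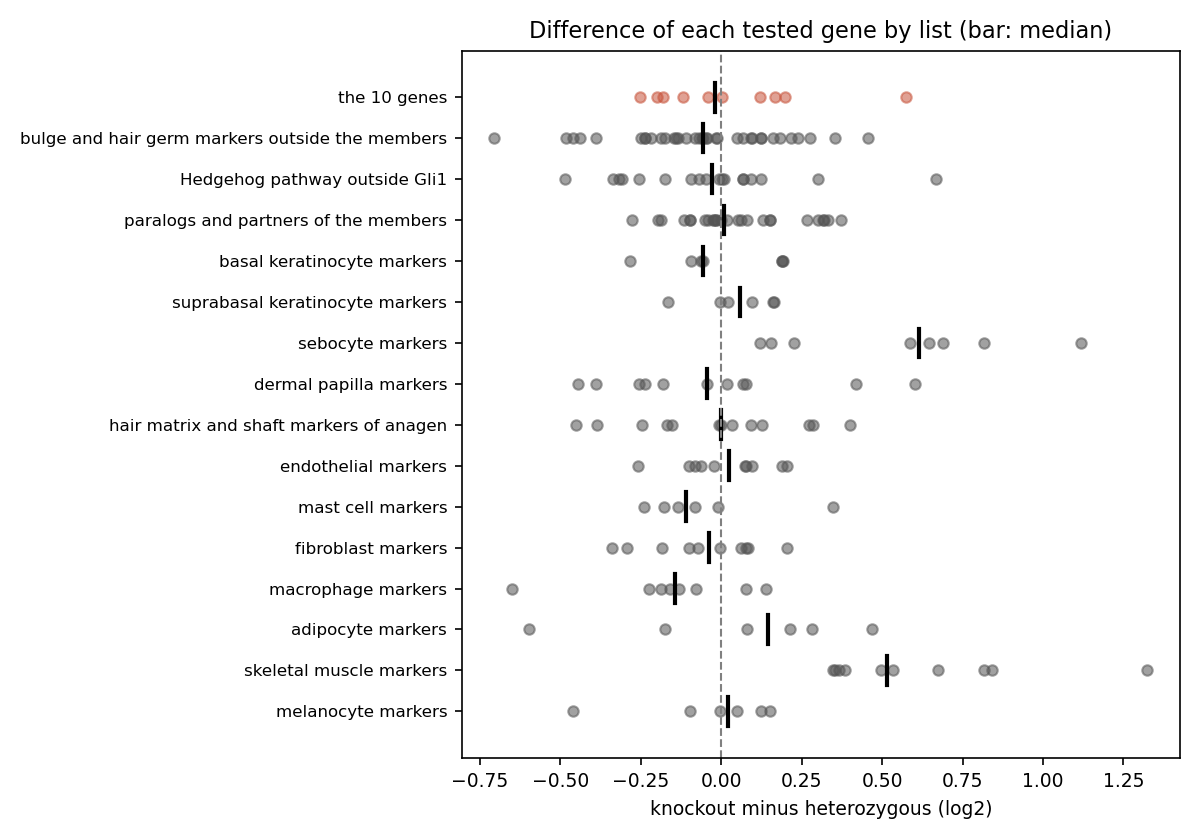
Difference between genotypes (log2) of each tested gene, 1 row per list, points for genes and a black bar for the median. The 10 genes and the 3 lists under them lie around 0 with medians from -0.06 to 0.01, and sebocyte and skeletal muscle markers lie to the right with medians of 0.62 and 0.52.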

How the data were processed

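RNA of 4 skins was prepared for the arrays by the Ambion WT kit and carried a biotin label, per the labels' protocols. Affymetrix Expression Console 1.1.1 and PLIER 2.0 are named in the submitters' processing notes. The deposited values were taken to be log2 from their range (2.54 to 14.9), since no source used here states their scale. Lower quartiles of the arrays differed by up to 0.34, so the arrays were quantile normalized. Of 35557 probe sets, 21789 had 1 gene, 1621 several and 12147 none. For 21698 of those with 1 gene the symbol was taken from RefSeq through the gene identifier, whether or not it changed. Tested were probe sets with 1 gene and a mean above the 25th percentile (6.67). Genotypes were compared with limma 3.58.1 in R 4.3.3 (lmFit, eBayes with a trend, 2 residual degrees of freedom, two-sided, Benjamini-Hochberg, threshold 0.05). The SE is the moderated one, drawn towards a fitted prior. The test was also run on simulated data with 200 changed probe sets, and the outcome is not given here. A probe set sums up probes along a transcript, so a change limited to 1 part of it may not show.

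The 10 genes, the lists and the tests were chosen with earlier results of these data known. Named are all 10 genes, Arntl, up to 4 genes per list with the smallest p, and the 5 probe sets most like the gene with the smallest p; others named were chosen after their values were seen. Alternatives were the values as deposited, median centring, offsets of 16 and 64, testing without a filter or with the 50th percentile as the filter, no trend, a robust prior, 1 probe set per gene, the replicate number as a block, each array left out in turn, and, added after seeing the data, testing probe sets with several genes too. Leaving out an array assumes that the remaining array of that genotype varies as the other pair does.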

Additional observations from a re-analysis of the deposited data

How the results depend on the processing

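Over the 15 alternatives, Cd34, Sox9, Lhx2, Runx1, Gli1 and Postn kept their direction. Nfatc1 turned to 0.077 with the values as deposited and 0.11 with median centring, and ran from -0.19 to 0.11 with an array left out. With an array left out, Tbx1 ran from -0.070 to 0.074, Foxc1 from -0.022 to 0.42 and Lrig1 from -0.053 to 0.29, each turned below 0 without knockout array 1, and Tbx1 also without heterozygous array 1 (-0.026). Only Postn, among the 10, passed the adjusted threshold anywhere: as deposited, median centred, with the 50th percentile filter, with a robust prior, with the replicate block and without heterozygous array 1. The number of the 10 with an unadjusted p under 0.05 was 1 as deposited, 1 with median centring, 1 without a trend and 1 to 2 with an array left out. The count of all tested probe sets past the threshold, 323, was 544 as deposited, 913 with median centring, 145 without a filter, 0 with several-gene probe sets added (2713 at an unadjusted p under 0.05), 1235 with the replicate block, and 37 to 958 with an array left out; the cause was not tested. Of those at an unadjusted p under 0.05, 64.4% were higher in the knockout and 79.3% with median centring. Without heterozygous array 2, 1150 were higher and 1149 lower. The labels do not say that the number marks a shared litter. Deviations of same-numbered arrays correlated at 0.17 across probe sets. With the replicate block, Postn had an adjusted p of 0.015, Gli1 of 0.21, Sfrp1 of 0.012, Npnt of 0.032, Krt24 of 0.021, Igfbp5 of 0.045 and Disp1 of 0.028.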

Other observations

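Several genes from the list of other bulge and hair germ markers, picked here after their values were seen, did not share one direction. Whole skin was read, and the part of other cells in these values was not tested. Krt15, the keratin used to mark the bulge, read 12.13 and 11.75 in heterozygous skin against 12.27 and 12.03 in knockout skin, so the genotypes overlapped (difference 0.22, SE 0.15). Lgr5, a receptor of lower bulge and hair germ cells, differed by -0.02 (SE 0.11). Lgr6, its relative in the upper follicle, read 9.26 and 9.25 against 9.05 and 8.99 (-0.24, SE 0.11, limma adjusted p = 0.29). Cd200, a surface protein of bulge and germ cells, read 8.80 and 8.88 against 8.39 and 8.51 (-0.39, SE 0.11, adjusted p = 0.11). Grem1, a secreted BMP antagonist, read 9.34 and 9.17 against 8.85 and 8.74 (-0.46, SE 0.12, adjusted p = 0.079). In the last 3 both knockout arrays lay below both heterozygous arrays. The same held for 15 of the 36 markers in the list they come from, beside 22.1% of all tested probe sets. Both knockout arrays lay above in 6 of the 36, beside 27.8%. These counts have no test.

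Dermal papilla markers, of the mesenchyme that signals to the hair germ, had a median difference of -0.04 over 11 tested genes. Of these, 0 passed the adjusted threshold in limma. At an unadjusted p under 0.05, 2 were higher and 3 lower, beside 11.6% and 6.38% of all tested probe sets. Vcan, a proteoglycan, differed by 0.60 (SE 0.15), Corin, a serine protease, by -0.39 (SE 0.13), Rspo3, which enhances Wnt signalling, by -0.44 (SE 0.17) and Inhba by 0.42 (SE 0.17). Markers of the hair matrix and shaft, which belong to the growth phase, had a median of 0.00 over 13 tested genes. Here 1 was higher and 3 were lower at an unadjusted p under 0.05, beside the same shares of all tested probe sets. Krtap3-1 differed by -0.45 (SE 0.11), Foxn1 by -0.39 (SE 0.13) and Dlx3 by -0.25 (SE 0.11), while Krt71, a keratin of the inner root sheath, differed by 0.40 (SE 0.18).
Further lists of skin cell types gave median differences of 0.02 for melanocyte, 0.15 for adipocyte, -0.14 for macrophage, -0.06 for basal and 0.06 for suprabasal keratinocyte markers, with no gene past the adjusted threshold. Single arrays moved these medians: without heterozygous array 2 that of adipocyte markers was -0.17 and that of suprabasal markers -0.11, without heterozygous array 1 they were 0.44 and 0.16, and basal markers went from -0.25 with knockout array 1 left out to 0.15 with knockout array 2 left out. Melanocyte markers ran from -0.07 without knockout array 2 to 0.10 without heterozygous array 2, and macrophage markers from -0.23 without heterozygous array 2 to -0.06 without knockout array 1.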
